A study of Mus musculus with 5 samples.

Results

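Dopamine receptor and DARPP-32 signalling genes were examined in striatal RNA of 5 mice that all carry a Huntington's disease (HD) transgene, some of them with added miR-196a. The 10 genes are Drd1, Drd2, Gnal, Gng7, Adcy5, Rgs9, Rasd2, Ppp1r1b, Ptpn5 and Arpp21. Their probes were found by the gene symbol that the platform table gives, current or older (Drd1 is listed as DRD1A), and every probe found is reported. This gave 16 of 26423 probes, for 9 of the 10 genes out of 17742 genes on the array. No probe of Adcy5, the adenylyl cyclase of striatal projection neurons, was analysed here.

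HD_miR196a stands for 3 male FVB mice aged 12 months with both transgenes, obtained by crossing the HD line with a line that carries a miR-196a precursor. HD stands for 2 male FVB mice aged 12 months with the HD transgene and no miR-196a transgene. In all 5 mice the HD transgene fuses GFP with the first exon of HTT, taken from human and carrying 84 CAG triplets. Both transgenes are driven by a human ubiquitin promoter, so neither is limited to neurons. The labels describe motor function as improved in HD_miR196a mice and weak in HD mice. All comparisons are therefore between mice with mutant HTT, and none is with healthy mice, which were not analysed here.

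Dopamine acts on striatal projection neurons through opposing receptors. The D1 receptor (Drd1) activates the stimulatory G protein Golf, whose alpha subunit is Gnal, and so raises cyclic AMP, while the D2 receptor (Drd2) acts through inhibitory G proteins and lowers it. Cyclic AMP activates protein kinase A, which phosphorylates DARPP-32, the product of Ppp1r1b, and turns it into an inhibitor of protein phosphatase 1. These transcripts are concentrated in the striatum, and several of them are well known to be reduced in mouse models of HD.

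The difference between the groups of mice is miR-196a, a microRNA encoded in the Hox clusters that guides silencing through its seed, bases 2 to 8 from the 5′ end. The mature mouse sequences of miR-196a and of its relative miR-196b are taken from RefSeq (GRCm38.p6) and shown because miR-196a sets the groups apart. The labels do not say which species the added precursor comes from. Capitals mark the seed, which both share.
mmu-miR-196a-5p: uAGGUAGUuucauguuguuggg
mmu-miR-196b-5p: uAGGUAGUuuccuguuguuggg
The level of the microRNA itself was not analysed here.

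Values are single-colour array intensities, 1 per probe and mouse, which were quantile normalized, floored at 1 and given on the log2 scale. The intensity of a probe depends on the probe, so values are compared between mice and not between genes. Olfactory receptor genes are rarely expressed in brain, and their 544 probes served as a gauge of background, with mean levels whose median was 4.99 and whose 95th percentile was 8.31. Of the 16 probes, 10 had a mean over the 5 mice above that percentile and 6 were below it. Of 15 other measured markers of striatal projection neurons, such as Penk, Tac1 and Bcl11b, 14 were above the same percentile, while 60.4% of all probes were below it. So were 10 of 11 cortical markers and 6 of 6 markers of thalamus and pallidum above it. The count therefore cannot tell striatum from nearby brain tissue. In bulk tissue, fewer cells of a type and less RNA per cell cannot be told apart.

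Across these genes, no probe passed the test for a difference between HD_miR196a and HD mice. Limma called 0 of 16 member probes at a Benjamini-Hochberg adjusted p under 0.05, and 0 of all 26423 probes, which is 0%. Without adjustment 5 of the 16 had p under 0.05, against 4.16% of all probes, and all 5 were higher in HD_miR196a mice, against 2.11% of all probes. That count of 5 was 0 without HD mouse 1, 1 without HD_miR196a mouse 1, 1 without HD_miR196a mouse 2, 1 without mouse 1 of each group, 1 with median centring, and 2 without scaling, with a floor set to the olfactory receptor median or with the cortical covariate described further on. Of all probes 13.8% had p under 0.05 without scaling, with 165 higher and 3476 lower in HD_miR196a mice. In both directions together, the 2 of 16 there are thus no more than the array's share. The 2 were the Rgs9 probes, the bright one higher (0.309) and the dim one lower (-0.431). The share of all probes was 3.18% to 5.73% under the other settings named. The count of 5 was 4 with a floor of 16 or without HD_miR196a mouse 3. It was 5 with probe filters or limma's trend and robust settings. A block for mouse number, which sets aside HD_miR196a mouse 3, gave 6. All-probe shares under these were 3.85% to 7.64%. By the brightest probe of each gene, 8 of 9 genes had a higher mean in HD_miR196a mice, against 48.9% of all 17742 genes, but 6 of 9 without scaling between arrays and 5 of 9 without HD mouse 1. The 8 include Gnal at a difference of only 0.003, with its other probe at -0.06, and the gene outside them is Drd2, at or near the floor. The median difference of the 9 genes was 0.30 on the log2 scale, against -0.004 over all genes, and 0.15 when the probes of each gene were averaged. HD_miR196a mice lay above HD mice without overlap for 4 of the 9 (Rgs9, Ppp1r1b, Ptpn5 and Drd1), or 44.4%. Over all genes 20.7% did not overlap, and at 10% the HD_miR196a mice were the higher ones. An exact permutation test of 3 against 2 mice cannot give a p below 0.1, even where groups do not overlap.

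**Figure D1:**
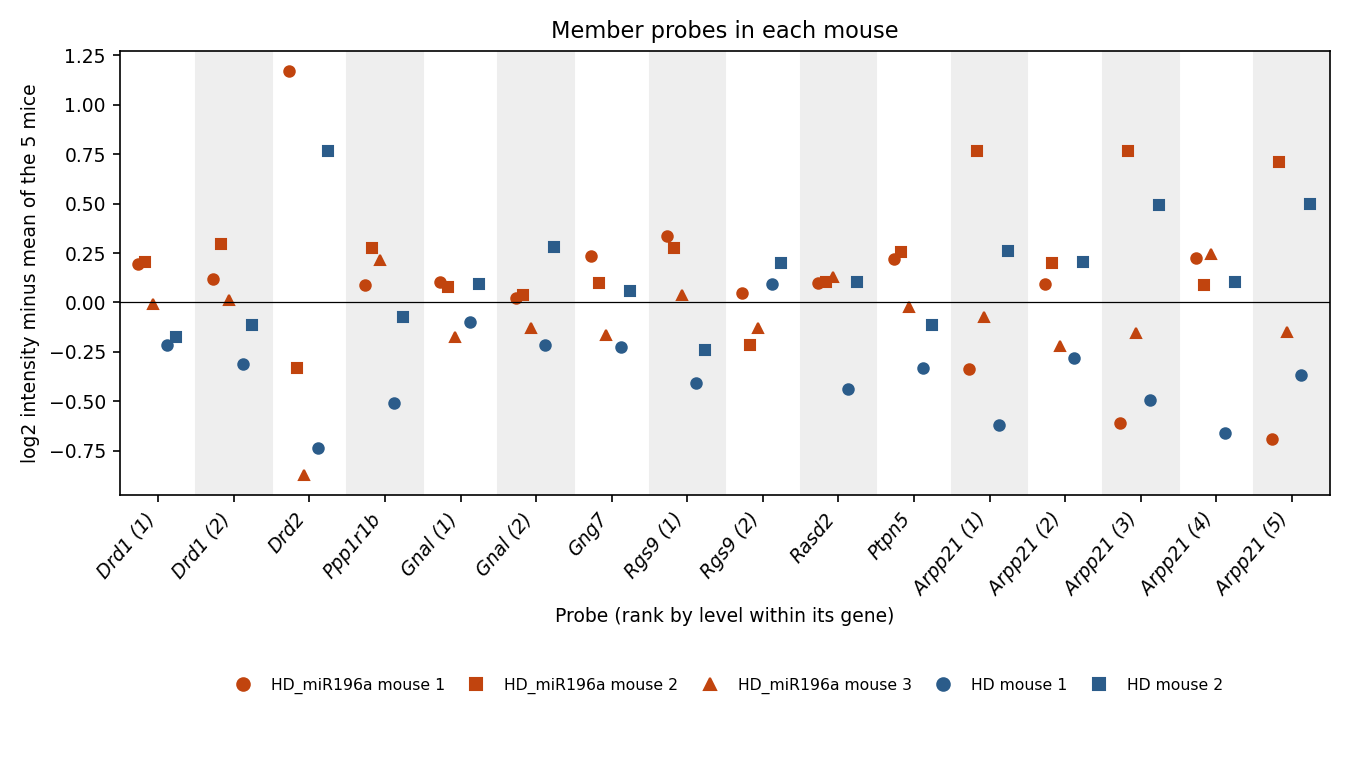
Normalized log2 intensity of each of the 16 probes in each mouse (y axis, minus the mean of the 5 mice), with HD_miR196a mice in orange left of HD mice in blue, and symbols for the mouse number. HD mouse 1 lies below HD mouse 2 at all 16 probes and is the lowest mouse at 11 of them.

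Drd1, the D1 receptor of the direct pathway, was measured by a pair of probes that gave like values. Its brighter probe, mMR031229, measured 13.11, 13.11 and 12.90 in HD_miR196a mice 1 to 3, against 12.69 and 12.74 in HD mice 1 and 2. Its other probe, mMC003585, measured 12.93, 13.11 and 12.83 in HD_miR196a mice, against 12.51 and 12.70 in HD mice. On each probe every HD_miR196a mouse lay above both HD mice. The means of the brighter probe were 13.04 ± 0.12 (SD, n = 3) in HD_miR196a and 12.72 ± 0.03 (SD, n = 2) in HD. The differences were 0.33 ± 0.11 and 0.35 ± 0.13 (SE), and the limma adjusted p was 0.979 for both.

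Drd2, the D2 receptor of the indirect pathway, could not be assessed. Its only probe, PH_mM_0001418, measured 2.04, 0.54 and 0.00 in HD_miR196a mice, against 0.14 and 1.64 in HD mice. These values lie at or near the floor, below the olfactory receptor median, in both groups. The 95% interval of its fold difference ran from 0.242 to 3.98, so the probe says nothing about a change of Drd2 in either direction.

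Gnal encodes the alpha subunit of Golf, through which D1 receptors reach adenylyl cyclase, and its groups overlapped on both of its probes. The brighter, PH_mM_0006982, measured 11.66, 11.64 and 11.38 in HD_miR196a mice, against 11.46 and 11.65 in HD mice. The other, PH_mM_0013670, measured 10.37, 10.39 and 10.22 in HD_miR196a mice, against 10.13 and 10.63 in HD mice. Both HD values lay inside the range of the HD_miR196a mice on the first probe, while on the second the HD mice were the lowest and the highest of the 5. The differences were 0.00 ± 0.14 and -0.06 ± 0.18 (SE). The 95% interval of the fold on the brighter probe, 0.782 to 1.28, bounds the change on it without adjustment for the number of probes.

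Gng7 encodes the gamma subunit that assembles with Golf in striatal neurons. Its probe, PH_mM_0008140, measured 13.30, 13.16 and 12.90 in HD_miR196a mice, against 12.84 and 13.12 in HD mice. HD mouse 1 was below all HD_miR196a mice and HD mouse 2 within their range. The difference of 0.14 ± 0.17 (SE) was smaller than its SE, and the probe was not called (limma adjusted p = 0.979). Adjustment gave the same 0.979 at an unadjusted limma p of 0.446 here and of 0.012 for the bright Rgs9 probe. That value therefore does not rank the genes. Without scaling of the arrays the sign of Gng7 turned, to -0.11, against a shift of -0.20 in the median of all probes.

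Rgs9, a striatal regulator that speeds the shut-off of G protein signals downstream of D2 receptors, had with all 5 mice the largest difference among the 9 brightest probes, and its other probe went the opposite way. The bright probe, mMC017412, measured 13.66, 13.60 and 13.36 in HD_miR196a mice, against 12.92 and 13.08 in HD mice. The dim probe, PH_mM_0000648, measured 8.06, 7.80 and 7.88 in HD_miR196a mice, against 8.11 and 8.21 in HD mice. The groups did not overlap on either probe, with HD_miR196a higher on the bright one and lower on the dim one, whose mean is below the olfactory receptor percentile. Means on the bright probe were 13.54 ± 0.16 (SD, n = 3) in HD_miR196a and 13.00 ± 0.12 (SD, n = 2) in HD, a difference of 0.54 ± 0.14 (SE), or 1.45-fold with a 95% interval of 1.14 to 1.86. On the dim probe the difference was -0.25 ± 0.12. Neither passed (limma adjusted p = 0.979 for both). Rgs9 has a striatal and a retinal isoform, and the sources used here do not say which of them each probe reads.

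Rasd2, which encodes Rhes, a small GTP-binding protein enriched in striatum and known to bind mutant huntingtin, showed its difference through 1 mouse. Its probe, mMC008806, measured 12.43, 12.43 and 12.46 in HD_miR196a mice, against 11.89 and 12.44 in HD mice. The HD_miR196a mice were nearly equal and HD mouse 2 lay among them, while HD mouse 1 was lower. The difference of 0.28 ± 0.18 (SE) became 0.01 without HD mouse 1 and 0.55 without HD mouse 2.

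Ppp1r1b, the gene of DARPP-32, was higher in every HD_miR196a mouse than in either HD mouse. Its probe, mMC012326, measured 11.55, 11.74 and 11.68 in HD_miR196a mice, against 10.96 and 11.39 in HD mice. The HD mice differed from each other by more than the HD_miR196a mice did. Means were 11.66 ± 0.10 (SD, n = 3) in HD_miR196a and 11.18 ± 0.31 (SD, n = 2) in HD, and the difference of 0.48 ± 0.16 (SE, 1.40-fold, 95% interval 1.04 to 1.88) did not pass (limma adjusted p = 0.979). It was 0.26 without HD mouse 1 and 0.70 without HD mouse 2.

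Ptpn5 encodes STEP, a striatum-enriched tyrosine phosphatase that dephosphorylates glutamate receptors and MAP kinases and is itself regulated by dopamine through protein kinase A. Its probe, PH_mM_0009204, measured 12.76, 12.79 and 12.51 in HD_miR196a mice, against 12.20 and 12.42 in HD mice. The groups did not overlap, though the gap between HD_miR196a mouse 3 and HD mouse 2 was 0.09. The difference was 0.37 ± 0.14 (SE), or 1.30-fold with a 95% interval of 1.01 to 1.67 (limma adjusted p = 0.979).

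Arpp21 encodes a phosphoprotein regulated by cyclic AMP, like DARPP-32 a substrate of protein kinase A, and is also expressed in cortex. It had 5 probes, of which only PH_mM_0012440 was above the olfactory receptor percentile. That probe measured 9.14, 10.24 and 9.40 in HD_miR196a mice, against 8.85 and 9.73 in HD mice. The mice numbered 1 were the lowest of both groups, and the groups overlapped. The 5 probes differed by 0.30 ± 0.44, 0.06 ± 0.21, 0.00 ± 0.51, 0.47 ± 0.25 and -0.11 ± 0.50 (SE), from the brightest to the dimmest. They gave no single direction.

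**Figure D2:**
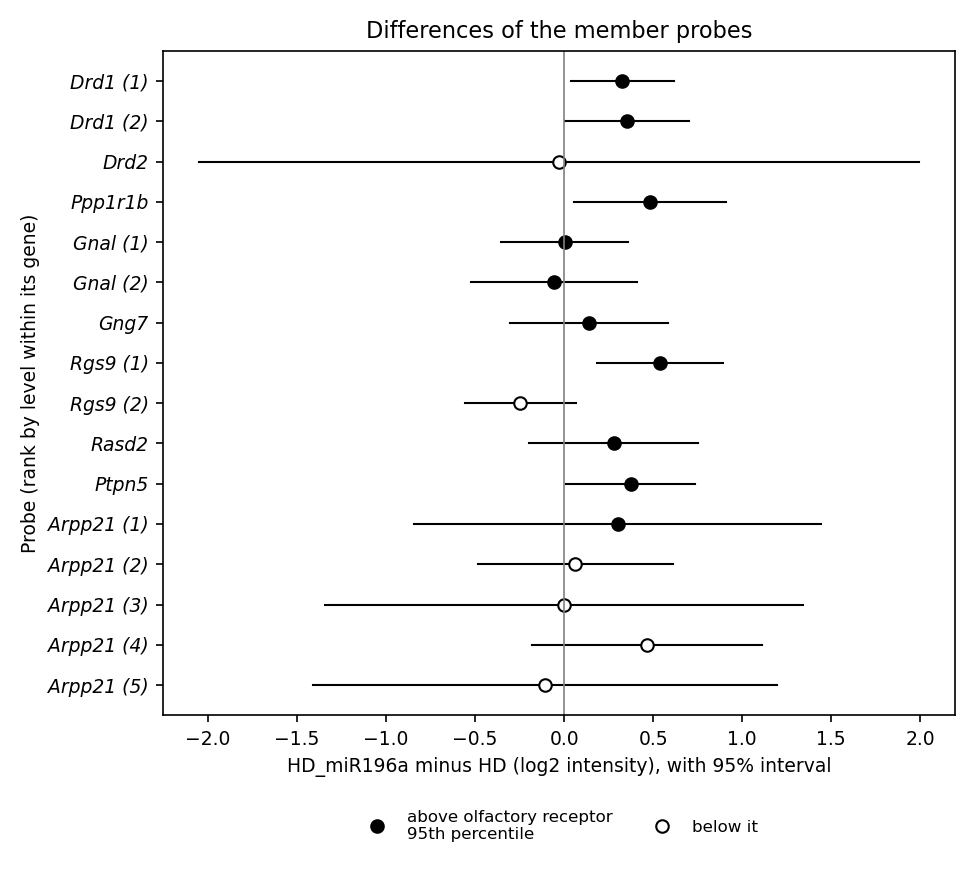
Difference of HD_miR196a minus HD mice for each of the 16 probes (x axis, log2 intensity), with 95% intervals from limma that are not adjusted for the number of probes. Filled points are probes above the 95th percentile of olfactory receptor probes and open points are below it. The intervals of both Drd1 probes, Ppp1r1b, Ptpn5 and the bright Rgs9 probe lie above 0, and that of Drd2 spans most of the axis.

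The precision reached by these 5 arrays differed between the genes. For 7 of the 8 genes with a bright probe (all but Arpp21) the unadjusted 95% interval of the fold of HD_miR196a over HD lay between 0.697 and 1.88 on probes above the olfactory receptor percentile. The Arpp21 interval ran from 0.558 to 2.72.

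The 2 HD mice differed from each other at these genes. HD mouse 2 was above HD mouse 1 at 16 of 16 probes, by a median of 0.29 over the 9 genes, against -0.02 over all genes, of which 46% were higher in HD mouse 2. HD mouse 1 was the lowest of the 5 mice for 7 of the 9 genes, against 17.3% of all genes. The median difference between the groups was 0.005 without HD mouse 1, where 5 genes were higher and 4 lower in HD_miR196a. It was 0.55 without HD mouse 2, where 9 of 9 were higher. Such a fit keeps 1 HD mouse and takes its spread from the HD_miR196a mice. Rgs9 (0.46), Drd1 (0.31), Ppp1r1b (0.26) and Ptpn5 (0.26) kept a positive difference without HD mouse 1, while Rasd2 (0.01) and Gng7 (-0.003) were near 0. In the same fit Gnal was at -0.09, Arpp21 at -0.14 and Drd2, at or near the floor, at -0.79.

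**Figure D3:**
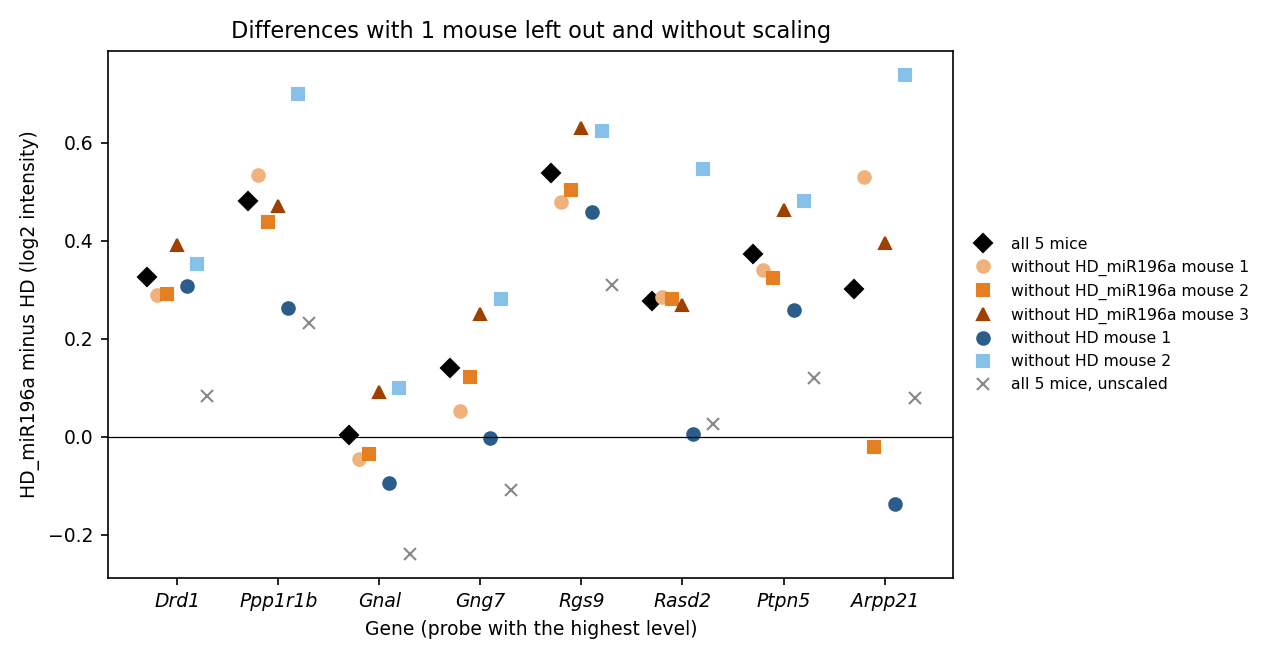
Difference of HD_miR196a minus HD (y axis, log2 intensity) for the brightest probe of each gene except Drd2, with all 5 mice, with each mouse left out in turn, and with all mice but no scaling between arrays. Rgs9, Ppp1r1b, Ptpn5, Drd1 and Rasd2 stay above 0 in every fit shown, Rasd2 at 0.01 without HD mouse 1, while Gnal, Gng7 and Arpp21 fall on both sides.

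Scaling between arrays also bears on these values, because the deposited medians were 160.0 to 166.3 in HD_miR196a mice and 184.3 to 185.6 in HD mice. Without scaling the median difference of the 9 genes was 0.08 and only the Rgs9 bright probe kept HD_miR196a mice above HD mice without overlap, while the brighter Gnal probe was lower in every HD_miR196a mouse. The deposited intensities of the bright Rgs9 probe were 11246, 11660 and 10516 in HD_miR196a mice, against 8507 and 9493 in HD mice. For Drd1 the deposited intensities of the brighter probe were 7601, 8400 and 7606 in HD_miR196a mice, against 7238 and 7602 in HD mice, which overlap. Relative to the shift of -0.20 of all probes, the unscaled differences were 0.51 for Rgs9, 0.43 for Ppp1r1b, 0.32 for Ptpn5, 0.28 for Drd1 and -0.04 for Gnal.

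Cortical neuron markers separated the mice numbered 1 from the others in both groups. The mean of 11 such markers was 8.38, 10.36 and 10.02 in HD_miR196a mice 1 to 3, against 8.79 and 10.56 in HD mice 1 and 2, and 10 of the 11 were above the olfactory receptor percentile. Their summed levels were 92.1 to 113.9 in HD_miR196a and 96.6 to 116.2 in HD, and none was at the floor. The 8 measured genes other than Drd2 had means of 12.20, 12.34 and 12.07 in HD_miR196a mice, against 11.73 and 12.07 in HD mice. So HD mouse 1 was low in both lists, while HD_miR196a mouse 1 was low in cortical markers and not in the dopamine signalling genes. Without mouse 1 of each group the median difference of the 9 genes was 0.09. With the cortical mean as a covariate it was 0.33. The part of cortical tissue in the differences was not tested further.

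Oligodendrocyte markers were also higher in HD_miR196a mice, by about as much as the dopamine signalling genes. Of 7 measured, 7 had a higher mean, with a median difference of 0.28, and 0 were called. Their means were 12.81, 12.45 and 12.18 in HD_miR196a mice, against 12.37 and 11.97 in HD mice, so here HD mouse 2 was the lowest and the groups overlapped. Their summed levels were 85.3 to 89.7 in HD_miR196a and 83.8 to 86.6 in HD, with none at the floor. Their part in the differences was not tested. Astrocyte markers summed to 88.9 to 91.0 in HD_miR196a and 77.0 to 89.7 in HD, and the marker at the floor, in HD mouse 1, was Slc1a3. Of the 7 astrocyte markers 4 were higher in HD_miR196a, with a median of 0.01. For interneurons 5 of 7, for microglia 4 of 7, for endothelium 3 of 6, for thalamus and pallidum 3 of 6 and for choroid plexus and ependyma 3 of 5 were higher, with medians of 0.05, 0.06, 0.01, 0.15 and 0.65 in that order. Choroid plexus and ependyma markers summed to 38.9 to 42.3 in HD_miR196a and 37.7 to 37.9 in HD, without overlap. Of these 5 markers, 2 were above the olfactory receptor percentile and 0 were called. The part of that tissue in the differences was not tested.

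**Figure D4:**
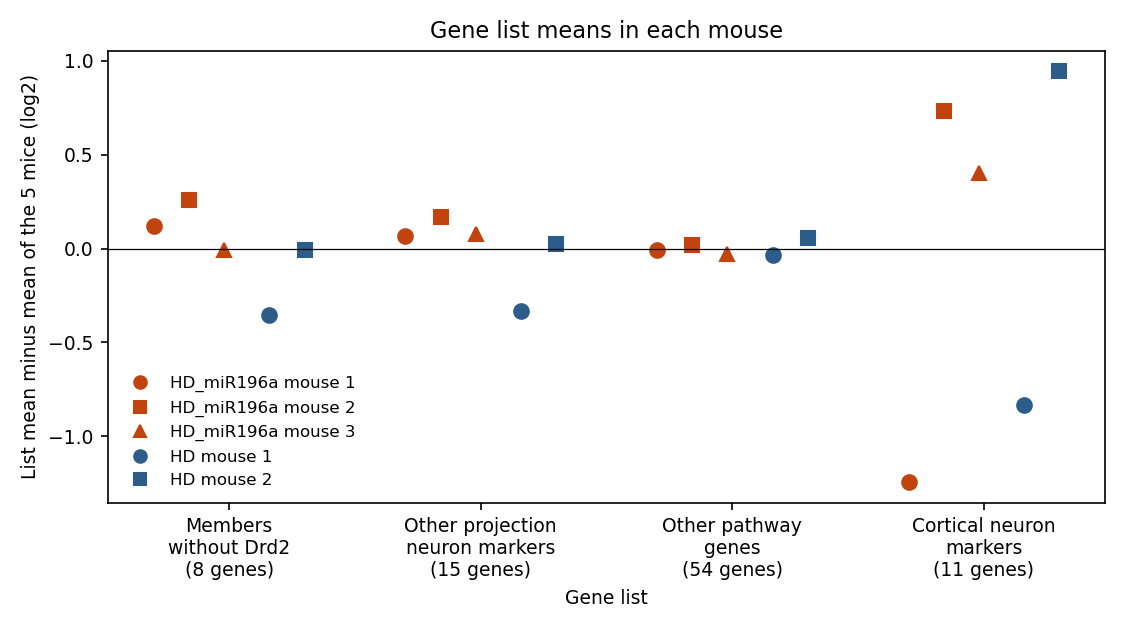
Mean log2 intensity of 4 gene lists in each mouse (y axis, minus the mean of the 5 mice), with HD_miR196a mice left of HD mice. HD mouse 1 is the lowest for the dopamine signalling genes (-0.36) and for the other projection neuron markers (-0.33), and the mice numbered 1 are both low for cortical markers, at -1.24 in HD_miR196a and -0.83 in HD.

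Other markers of striatal projection neurons stood close to these genes. Of 15 measured, 13 had a higher mean in HD_miR196a mice, the median difference was 0.31, and 0 were called. Their means were 11.40, 11.51 and 11.41 in HD_miR196a mice, against 11.00 and 11.36 in HD mice. The 15 do not include the 9 genes described above, but the arrays are the same, so this is not a second test. Pde1b and Pde10a are among the 15 and are also counted in the wider pathway.

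The wider pathway had a median difference near 0. Of 67 other genes of dopamine, cyclic AMP and DARPP-32 signalling, 56 were measured, 29 with a higher and 27 with a lower mean in HD_miR196a mice. The median was 0.01 and limma called 0. Without adjustment 4 of the 56 (7.14%) had p under 0.05, against 3.71% of all genes by their brightest probe. Probes of Adora2a, Ppp1cb, Fyn and the other adenylyl cyclases were not analysed here.

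By role, the receptor Drd3 was below the olfactory receptor percentile, at 6.54 ± 0.13 (SD, n = 3) in HD_miR196a and 6.64 ± 0.06 (SD, n = 2) in HD mice. Gnas, the widely expressed relative of Gnal, differed by 0.04 ± 0.37 (SE). Gnb5, the beta subunit that binds Rgs9, measured 12.92, 13.10 and 13.04 in HD_miR196a mice, against 12.68 and 12.84 in HD mice. Its groups did not overlap on that probe, with a difference of 0.26 ± 0.11. They overlapped on its other bright probe, mMC025596, at 12.35, 12.45 and 12.13 in HD_miR196a mice, against 11.87 and 12.15 in HD mice. Rgs7bp, the membrane anchor of Rgs9, differed by 0.19 ± 0.40.

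Cyclic nucleotide phosphodiesterases break down the signal. Pde1b differed by 0.45 ± 0.12 (SE) and Pde10a, which is concentrated in projection neurons, by 0.60 ± 0.22. Neither passed (limma adjusted p = 0.979 for both), and the groups did not overlap for either. Among subunits of protein kinase A, Prkacb differed by 0.09 ± 0.09 and Prkar2b by -0.06 ± 0.10, while Prkar1b differed by -1.77 ± 0.53. Among the phosphatases, Ppp1ca, which DARPP-32 inhibits, differed by 0.17 ± 0.15 and the calcineurin subunit Ppp3ca by 0.11 ± 0.12. Cdk5, a kinase that phosphorylates DARPP-32 at another site, differed by 0.15 ± 0.13. Th, the enzyme of dopamine synthesis, whose transcript is made mostly outside the striatum, differed by 0.06 ± 0.24.

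A pair of pathway genes was chosen after their values were seen. Rasgrp2, a guanine nucleotide exchange factor for Rap that is enriched in striatum, measured 10.46, 10.40 and 10.19 in HD_miR196a mice, against 9.37 and 9.81 in HD mice, a difference of 0.76 ± 0.18 (SE). Prkar1b, a regulatory subunit of protein kinase A, measured 11.15, 12.18 and 10.48 in HD_miR196a mice, against 12.86 and 13.23 in HD mice, with HD_miR196a mouse 3 the lowest. The groups did not overlap for either, the HD_miR196a mice being above for Rasgrp2 and below for Prkar1b, and neither passed (limma adjusted p = 0.979 for both).

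The 250 bases before the transcription start are shown for Rgs9, Drd1 and Ptpn5, at each start listed, because the HD_miR196a mice lay above the HD mice without overlap on the brightest probes of these genes. Ppp1r1b windows were not used here. Mutant huntingtin is known to interfere with the transcription factors Sp1 and CREB, which bind GC boxes and cyclic AMP response elements. Windows from RefSeq (GRCm38.p6) were searched on both strands for GGGCGG (GC box), TGACG (the core of the response element), TGACGTCA (the full element, which also holds the core) and TATAAA. Capitals mark matches.
Rgs9, chr11:109298182-109298431, minus strand: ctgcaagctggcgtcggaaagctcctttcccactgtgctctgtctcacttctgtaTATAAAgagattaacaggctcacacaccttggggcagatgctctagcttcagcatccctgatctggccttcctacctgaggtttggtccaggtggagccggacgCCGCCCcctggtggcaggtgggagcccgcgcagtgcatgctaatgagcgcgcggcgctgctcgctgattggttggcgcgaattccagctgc
Drd1, chr13:54054781-54055030, minus strand, inner start: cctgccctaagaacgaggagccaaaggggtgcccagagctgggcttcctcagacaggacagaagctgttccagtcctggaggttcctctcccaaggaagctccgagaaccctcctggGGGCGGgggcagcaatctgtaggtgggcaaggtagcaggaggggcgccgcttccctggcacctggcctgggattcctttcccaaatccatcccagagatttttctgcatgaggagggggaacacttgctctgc
Drd1, chr13:54055659-54055908, minus strand, outer start: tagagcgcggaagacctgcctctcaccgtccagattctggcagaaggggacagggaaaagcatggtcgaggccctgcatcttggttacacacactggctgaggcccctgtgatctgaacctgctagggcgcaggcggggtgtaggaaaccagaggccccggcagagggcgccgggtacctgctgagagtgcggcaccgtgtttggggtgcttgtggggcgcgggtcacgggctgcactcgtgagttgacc
Ptpn5, chr7:47132599-47132848, minus strand, inner start: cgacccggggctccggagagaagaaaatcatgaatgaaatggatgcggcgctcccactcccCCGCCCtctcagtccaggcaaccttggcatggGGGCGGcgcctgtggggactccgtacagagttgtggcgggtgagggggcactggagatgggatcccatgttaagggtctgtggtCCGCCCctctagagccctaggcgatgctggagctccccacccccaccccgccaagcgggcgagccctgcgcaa
Ptpn5, chr7:47133685-47133934, minus strand, outer start: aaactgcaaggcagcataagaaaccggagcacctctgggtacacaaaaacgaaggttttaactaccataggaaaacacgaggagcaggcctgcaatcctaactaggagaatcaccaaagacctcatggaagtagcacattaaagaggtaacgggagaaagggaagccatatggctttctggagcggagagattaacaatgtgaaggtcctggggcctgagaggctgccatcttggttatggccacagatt
The Rgs9 window held 1 GC box and 1 TATAAA, the inner Drd1 window 1 GC box and the inner Ptpn5 window 3 GC boxes, while the outer windows of Drd1 and Ptpn5 held none of the 4 motifs. Over the 19 windows searched for 8 of the 10 genes (all but Gnal and Ppp1r1b), 6 held a GC box, 3 the core and 1 TATAAA. Arpp21 alone gave 9 of the 19, some of them overlapping, with a GC box in 0 and the core in 2. The windows with a GC box came from Adcy5, Drd1, Drd2, Gng7, Ptpn5 and Rgs9, 1 each. Shares by window therefore weigh Arpp21 most, and no share by gene was computed over all genes. A GC box was found in 32.7%, the core in 17.8%, the full element in 1.55% and TATAAA in 12.4% of 32851 windows of the same length. These are matches of letters and not binding sites.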

How the data were processed

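Striatal RNA of 5 mice was amplified, labelled with Cy5 and hybridised to a single-colour array, per the labels' protocols. The deposited intensity values are linear, 1 per probe and mouse, with the 2 technical repeats of each mouse combined by the authors, per the labels, so the mouse is the replicate. Some values are slightly below 0, as after background subtraction. Scanner, software and scaling: not given in the sources used here. Scanner files and detection calls were not used here. Each mouse had 312 to 370 values under the floor of 1.

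Intensities were quantile normalized, floored at 1 and put on the log2 scale. All 26423 probes entered a fit by limma (version 3.58.1, lmFit then eBayes, R 4.3.3). It was two-sided with Benjamini-Hochberg adjustment over all of them, and 95% intervals are those of that fit. The number of arrays limits the precision. Probe symbols were matched to RefSeq genes (GRCm38.p6): 18213 directly, 2126 by synonym, 38 unmatched and 6046 probes without a symbol. All probes found for the 10 genes are reported, though of the Arpp21 probes only the brightest is named and given by mouse. Fixed for naming were also 13 pathway genes, of which Adora2a had no probe here. The members and lists were chosen with earlier results of these data known. Alternatives changed the scaling, floor, filter, variance model, block, covariate and the mice used.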

Additional observations from a re-analysis of the deposited data

How the results depend on the processing

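The count of 0 called probes over the array became 2 at an adjusted p under 0.10, 1 among the brightest 75% of probes, 3 with trend and robust settings, 5 when the floor was 16, 4 when it was the olfactory receptor median, 1099 at an unadjusted p under 0.05, and 0 to 3 with 1 mouse left out. The 0 called member probes and 0 called pathway probes became 5 and 4 at an unadjusted p under 0.05 and stayed 0 under the other settings run. The median difference of the 9 genes was 0.0794 without scaling, where all probes shifted by -0.20, 0.146 from the mean of each gene's probes, and 0.0913 without mouse 1 of each group. With 1 mouse left out its lowest value was 0.00509 (HD mouse 1 omitted) and its highest 0.546 (HD mouse 2 omitted). Of 239 values of member probes under 15 alternatives, 211 kept their direction and 28 changed sign, none with a call. The lowest limma adjusted p was 0.362. Filters, variance settings and raised floors leave the difference of a probe above the floor unchanged, so that part of the 211 could not turn. Under a raised floor every Drd2 value was at the floor, so its direction there has no meaning.

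Without scaling the sign turned for Arpp21 probes 2 (-0.118) and 3 (-0.181), the brighter Gnal probe (-0.239) and Gng7 (-0.108). Median centring turned Arpp21 probe 3 (-0.00843), Drd2 (0.117) and the brighter Gnal probe (-0.0666). Without mouse 1 of each group Arpp21 probes 2 (-0.212) and 3 (-0.183), the brighter Gnal probe (-0.143) and Gng7 (-0.0942) turned. With 1 mouse left out, values fell on both sides of 0 for Arpp21 probes 1 (-0.137 to 0.739), 2 (-0.178 to 0.305), 3 (-0.488 to 0.491) and 5 (-0.538 to 0.323), Drd2 (-0.79 to 0.824), the Gnal probes (-0.0942 to 0.0997 and -0.303 to 0.19) and Gng7 (-0.00306 to 0.281). Omitting HD mouse 1 gave the low end of each range and omitting HD mouse 2 the high end. The cause was not tested.

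Mouse numbers 1 and 2 occur in both groups, and deviations from the group means correlated by 0.236 and 0.17 across probes, which are not independent replicates. At an unadjusted p under 0.05 the array had 558 probes higher and 541 lower in HD_miR196a mice, against 165 and 3476 without scaling. With the replicate block no probe was called (0), 2020 reached an unadjusted p under 0.05, the median difference of the 9 genes was 0.397 and Drd2 turned to 0.401. Mouse number 3 occurs only in HD_miR196a, so the block absorbs it. The difference in that fit therefore comes from mice 1 and 2 of each group alone. Low signal limits Drd2, the dim Rgs9 probe and 4 of the 5 Arpp21 probes.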
